A study of Homo sapiens with 4 samples.

Results

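JQ1 was compared with DMSO in resting Jurkat cells, a human line established from T-cell leukemia, by RNA-seq of 1 library on each side. These are 2 of the 4 libraries of the study. The members are the 11503 genes, of 50868 listed, whose FPKM averaged 1 or more over the 4 libraries, where FPKM is the read count of a gene divided by its length and by the library's total count. The last gene inside this filter had a mean FPKM of 1.001 and the first outside it 0.99997. The DMSO library came from cells that received the solvent alone, and the JQ1 library from cells that received 0.5 μM JQ1, both for 24 h and without PHA, a bean lectin used to activate T cells. The other pair of libraries had 150 ng/ml PHA in addition, with DMSO or with JQ1. It is used in the filter, for a further measurement of JQ1 against DMSO, and in a fit over all 4 libraries. The study used the RNA to look for genes and pathways that respond to inhibition of BET proteins in T cells. A single cell line stood for T cells, the cells were in culture, and each condition had 1 library, so differences could not be checked against replicates and are given with no test, apart from a fit over all 4 libraries named near the end.

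BET proteins, such as BRD2, BRD3 and the testis protein BRDT, bind acetylated lysines on histone tails with their bromodomains and bring the elongation factor P-TEFb and Mediator to promoters and enhancers. JQ1 occupies the acetyl-lysine pocket and displaces them from chromatin. In leukemia cells, genes with large enhancers, such as lineage genes and growth genes, are known to depend most on BET proteins, and HEXIM1, an inhibitor of P-TEFb, is a widely used marker that rises with BET inhibitors. Jurkat cells stem from an immature T cell and carry features of the thymic stage, such as CD1 and RAG genes.

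Library totals ranged from 18620954 to 19685401 counts, and genes of the mitochondrial genome took between 6.27% and 7.08% of them. All 12 defining T-cell genes passed the filter, with summed levels of 1857 CPM (counts scaled to the library total) in the DMSO library and 981.2 CPM in the JQ1 library. Of 15 myeloid genes and of 12 erythroid and megakaryocyte genes, 0 passed, and of 12 B-cell genes and 10 NK-cell genes 2 each passed. Of 11 genes listed as epithelial and stromal 1 passed, PECAM1, at 13.99 FPKM with DMSO against 1.65 with JQ1. The name of that list does not show that such cells were present. Summed levels of these 5 lists lay between 1.70 and 132.9 CPM with DMSO and between 1.12 and 22.5 CPM with JQ1, lower with JQ1 for each. Of the 132.9 CPM with DMSO, PECAM1 alone gave 126.5. Their part in the results was not tested. The libraries came from a single cell line and are bulk, so these sums give levels of RNA and not numbers of cells. Fewer cells that express a gene and less RNA per cell cannot be told apart.

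With JQ1, 600 genes were at least 2-fold higher and 995 at least 2-fold lower, on the log2 scale of FPKM with 0.1 added. This is 5.22% and 8.65% of the genes that passed, together 13.9%, and these shares are the background against which each gene list is read. Rose and fell are used only for genes past 2-fold, and each log2 ratio is of JQ1 to DMSO. For 1566 of the 1595 genes, 0 lay outside the 95% exact (Clopper-Pearson) interval, which is of the ratio of counts and covers counting error only. This interval is taken without the 0.1 added, so for low genes it need not hold the log2 ratio printed beside it. At 4-fold or more, 78 genes were higher and 197 lower, and at 8-fold or more 14 and 64. The median gene had a log2 ratio of -0.01, and all but the lowest and the highest decile of the genes lay between -0.93 and 0.74. Genes that rose were mostly low in DMSO-treated cells, with a median FPKM of 1.51 that became 4.54, and 15 of the 600 had an FPKM of 20 or more there. Genes that fell started higher, with a median FPKM of 5.03 that became 1.62, and 144 of the 995 had 20 FPKM or more with DMSO. Of the genes that rose 186 were under 1 FPKM with DMSO, and of those that fell 350 were under 1 FPKM with JQ1, so they passed the filter through the other libraries. Together, the genes that rose took 1.87% of the counts with DMSO and 4.92% with JQ1, and those that fell took 7.32% and 2.69%.

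**Figure D1:**
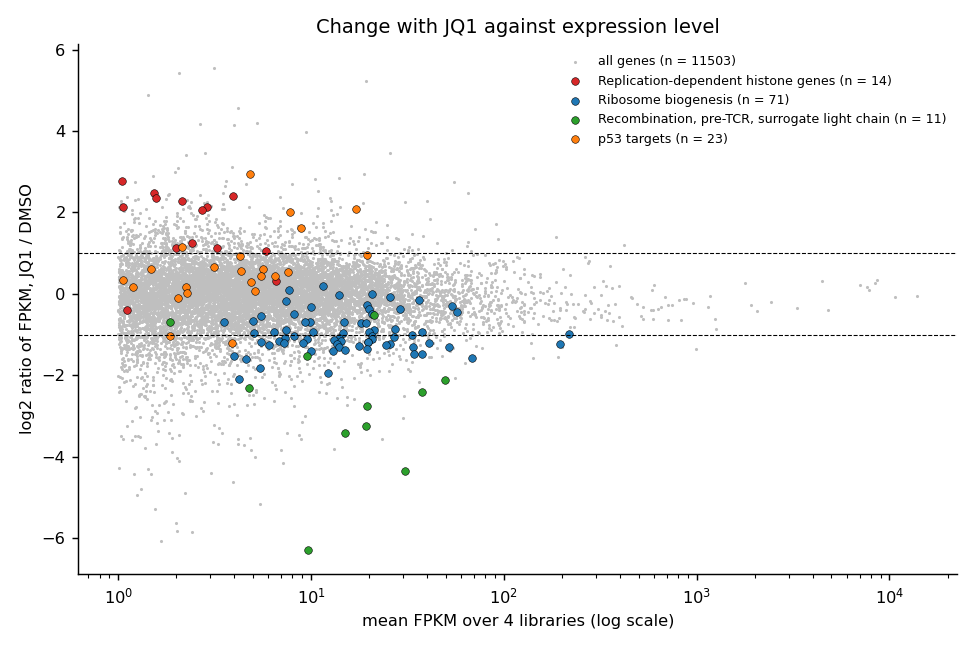
The log2 ratio of JQ1 to DMSO (vertical axis) is plotted against the mean FPKM over 4 libraries (horizontal axis, log scale) for 11503 genes (grey) and for the members of 4 gene lists (coloured). Replication-dependent histone genes lie at the low end of expression and 12 of 14 are past 2-fold higher, while 38 of 71 ribosome biogenesis genes and 9 of 11 recombination, pre-TCR and surrogate light chain genes are past 2-fold lower. Some of these histone genes passed the filter only through the JQ1 libraries.

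**Figure D2:**
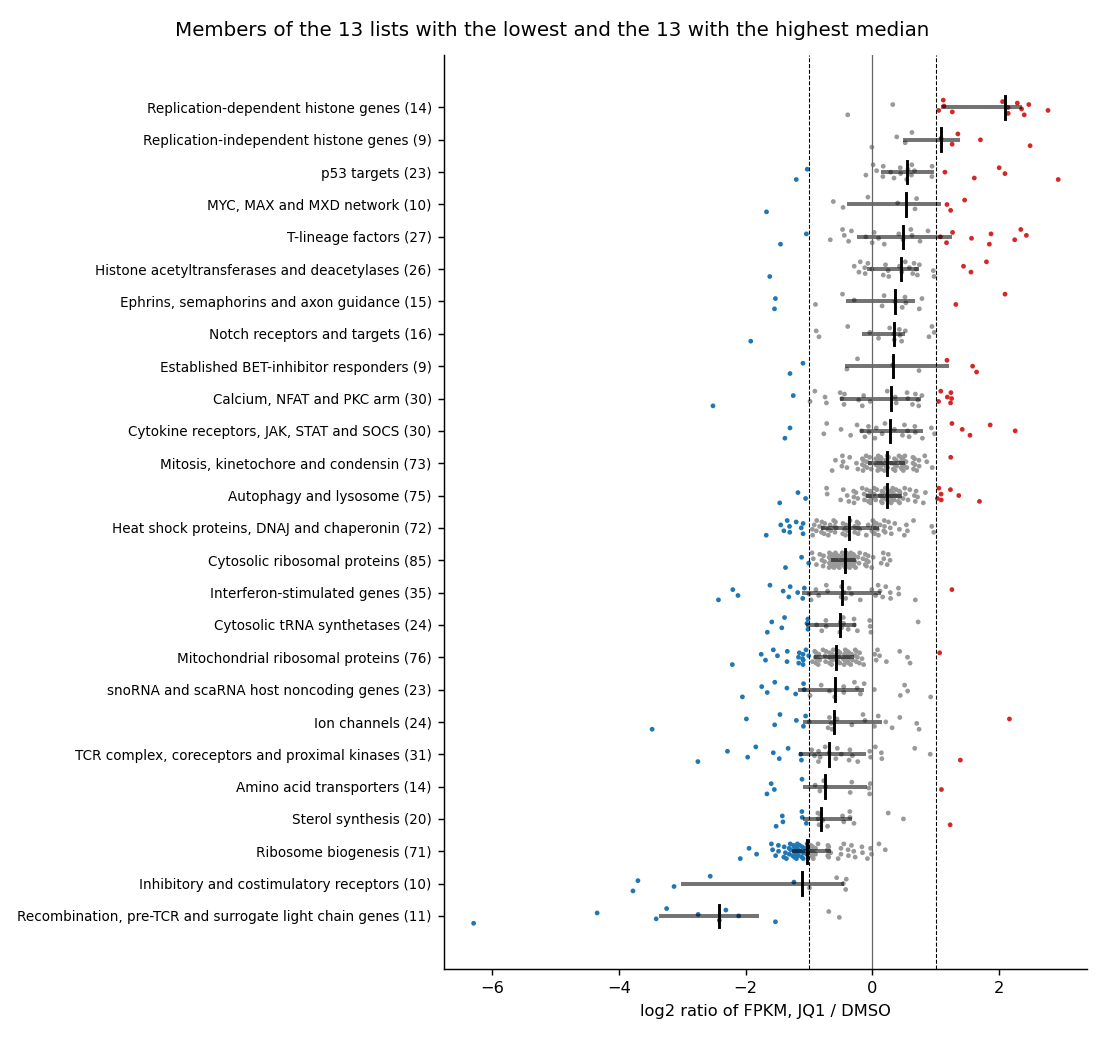
Each point is a gene of 1 of 26 lists, at its log2 ratio of JQ1 to DMSO (horizontal axis), with the median (black tick) and quartiles (grey bar) of each list, and red and blue for genes past 2-fold (dashed lines). The number of genes stands after each name. The lists are the 13 with the lowest and the 13 with the highest median among those with at least 9 genes that passed. Medians run from -2.42 for the recombination and pre-TCR list to 2.098 for replication-dependent histone genes. Some of these histone genes passed the filter only through the JQ1 libraries.

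BRD2, BRD3 and most of the machinery that BET proteins recruit stayed within 2-fold, and HEXIM1 rose. HEXIM1 (ENSG00000186834, chromosome 17, 45148502 to 45152101, plus strand), which holds P-TEFb inactive in the 7SK particle, measured 36.2 FPKM with DMSO against 108.5 with JQ1. It rose, with a log2 ratio of 1.58 (95% interval 1.52 to 1.65), and 14.3% of its exon bases are shared with an antisense gene. BRD2 had 27.5 FPKM with DMSO and 45.9 with JQ1, and BRD3 had 10.8 and 16.1. Both were higher with JQ1 and neither reached 2-fold, with log2 ratios of 0.74 and 0.58. BRDT had 0 counts with DMSO and 2 with JQ1 and did not pass the filter. Of 30 genes of P-TEFb, the 7SK particle and pausing factors, 27 passed, 1 rose (HEXIM1) and 1 fell. The gene that fell was AFF3, a scaffold of super elongation complexes, from 1.15 to 0.283 FPKM (log2 ratio -1.70). CDK9, the kinase of P-TEFb, had 12.3 and 14.8 FPKM. POLR2A, the largest subunit of RNA polymerase II, rose from 38.5 to 86.5 FPKM (log2 ratio 1.17). Mediator had 33 genes that passed, 1 higher and 1 lower, with a median of 0.12.

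The HEXIM1 promoter is shown for its TATA box and CCAAT boxes, which are taken up again beside the histone genes. The window, from RefSeq on GRCh38.p14, runs from 250 bases before to 50 after the listed start, chr17:45148225-45148524, plus strand. Capitals mark TATAAA, which starts 29 bases before the start, and CCAAT on either strand, which starts 230 and 149 bases before it.
HEXIM1: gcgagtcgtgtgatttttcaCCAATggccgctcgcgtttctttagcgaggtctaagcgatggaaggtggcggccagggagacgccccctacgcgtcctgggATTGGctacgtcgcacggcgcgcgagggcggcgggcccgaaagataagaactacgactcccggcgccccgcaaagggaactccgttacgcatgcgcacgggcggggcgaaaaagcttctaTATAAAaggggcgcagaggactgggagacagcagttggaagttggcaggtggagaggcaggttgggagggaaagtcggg

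MYC (ENSG00000136997), a driver of growth genes that BET inhibitors lower in many leukemias, had low levels in this line and was higher with JQ1. It measured 0.629 FPKM with DMSO against 1.55 with JQ1, from 106 and 273 counts, a log2 ratio of 1.18 (95% interval 0.97 to 1.64). With PHA it had 0.918 FPKM without JQ1 and 2.72 with it, so it passed the filter only through the JQ1 libraries. Of 13 genes of the MYC, MAX and MXD network 10 passed, 3 rose and 1 fell, with a median of 0.54 (-0.07 with no filter). MXD3 and MXD4, which compete with MYC for MAX, rose with log2 ratios of 1.46 and 1.24. MXD3 had 0.597 FPKM with DMSO and 0.617 with DMSO and PHA, so it too passed only through the JQ1 libraries. Of its exon bases 43.7% are shared with another gene. For MYC and MXD3 the filter itself favours a rise. MXI1, another such competitor, fell from 2.99 to 0.8695 FPKM (log2 ratio -1.67). In the pair with PHA it had the opposite sign, with 0.974 FPKM without JQ1 and 1.98 with it (log2 ratio 0.95). Of 12 genes listed as established responders to BET inhibitors 9 passed, 3 rose and 2 fell. Those that rose were HEXIM1, MYC and ZCCHC24 (log2 ratio 1.64). Those that fell were IL7R, the interleukin 7 receptor, from 1.68 to 0.622 FPKM, and BCL2, which blocks apoptosis, from 2.52 to 1.13 FPKM.

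Histone genes rose in both of their classes. Replication-dependent histone genes, which package new DNA in S phase, had 14 of 73 listed genes past the filter, and 12 of the 14 rose and 0 fell, with a median log2 ratio of 2.098 (1.14 with a pseudocount of 1, and 1.21 with no filter on low values). Their mRNAs mostly lack a poly(A) tail and the libraries were made from mRNA, and the genes together took only 0.0017% of the counts with DMSO and 0.0065% with JQ1. HIST1H3G, a histone H3 gene, measured 0.198 FPKM with DMSO against 1.94 with JQ1, from 9 and 92 counts. With PHA it had 0.126 FPKM without JQ1 and 1.92 with it, so it passed the filter only through the JQ1 libraries. Where members passed in this way the filter itself favours a rise, and the share of 12 of 14 is partly set by it. HIST2H2BE, a histone H2B gene, had 0.343 and 2.35 FPKM, a log2 ratio of 2.47 (95% interval 2.04 to 3.60). HIST1H2BD, another H2B gene, had 1.07 and 4.79 FPKM. Both exceptions were at different levels, with HIST1H2BK at 6.28 and 7.87 FPKM (log2 ratio 0.32) and HIST2H2AC at 1.23 and 0.912 (log2 ratio -0.39). Copies such as HIST2H4A and HIST2H2AA4 have near-identical partners, so the division of reads between them is uncertain.

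Histone genes listed as replication-independent, mostly with ordinary polyadenylated mRNA and made outside S phase as well, were far more abundant and rose in part. Of 13 listed 9 passed, 5 rose and 0 fell, with a median of 1.08 (0.58 with no filter). H1F0, the linker histone of resting cells, measured 20.8 FPKM with DMSO against 117.1 with JQ1 (log2 ratio 2.49, 95% interval 2.39 to 2.60). H1FX, another linker histone, had 44.01 and 143.8 FPKM, and H2AFX, the variant phosphorylated at DNA breaks, had 13.6 and 32.7. H3F3A, which encodes histone H3.3, rose with a log2 ratio of 1.35 and H2AFV with 1.08. The most abundant member, H2AFZ, had 56.02 and 55.7 FPKM, a log2 ratio of -0.01.

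Histone promoters are known for TATA and CCAAT boxes, and the HIST2H2BE promoter (RefSeq symbol H2BC21) is shown as the example. It lies at chr1:149886633-149886932 of GRCh38.p14 on the minus strand. Capitals mark TATAAA, which starts 30 bases before the start, and CCAAT on either strand, which starts 170, 142 and 77 bases before it.
HIST2H2BE: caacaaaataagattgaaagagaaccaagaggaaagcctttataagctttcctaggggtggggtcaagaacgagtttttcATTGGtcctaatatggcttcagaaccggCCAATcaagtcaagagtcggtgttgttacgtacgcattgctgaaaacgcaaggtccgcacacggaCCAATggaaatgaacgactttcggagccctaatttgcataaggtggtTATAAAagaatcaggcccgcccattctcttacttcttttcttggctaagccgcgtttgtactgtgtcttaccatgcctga
Of the 12 replication-dependent histone genes matched to a promoter, 8 (66.7%) had TATAAA between 50 and 10 bases before the start, on the strand of the gene, as did 4 of 8 replication-independent ones (50%). The share was 2.81% of all 27326 promoters in the RefSeq table and 1.30% of the 8156 genes that passed and were matched. Among matched genes that rose it was 5.40% (19 of 352), and among those that fell 1.67%. Of the 106 matched genes with this motif, 17.9% rose, against 4.14% of those without it. The histone genes just counted, HEXIM1 and ID1 are among the 106 and were not left out. These shares therefore do not describe the other genes with the motif by themselves. CCAAT on either strand was in 91.7% of the replication-dependent histone promoters (11 of 12), 41.8% of the promoters of genes that rose, 31.2% of those of genes that fell and 35.7% of all promoters. These matches describe letters in a window and do not show that a factor binds there.

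Among protein-coding genes, those with the largest rises included several that share most of their exons with a neighbour. UPK3BL (0 FPKM with DMSO and 4.58 with JQ1, 98.2% of exon bases shared) and the readthrough genes CTD-2550O8.5, XXbac-B562F10.12, CTC-260F20.3 and C7orf55-LUC7L2 are such cases, and their values are uncertain because the division of shared reads is not known. ZNF177 (0.215 and 2.02 FPKM) shares 90.6% of its exon bases. SLFN5 (ENSG00000166750, chromosome 17, 35243036 to 35273655, plus strand), an interferon-inducible Schlafen gene, shares none, and measured 3.81 FPKM with DMSO against 42.8 with JQ1. It rose 11.2-fold (log2 ratio 3.46, 95% interval 3.39 to 3.59). NEURL1B, a ubiquitin ligase that acts on Notch ligands, rose from 0.167 to 2.74 FPKM, and ABTB2, an ankyrin and BTB domain gene, from 0.271 to 2.66. BZRAP1 rose from 1.07 to 7.46 FPKM and KLHL24, a Kelch adaptor of a ubiquitin ligase, from 0.883 to 6.06. TRIM56, a ubiquitin ligase of innate immunity, had 1.51 FPKM with DMSO and 10.3 with JQ1. SURF4, a cargo receptor of the secretory pathway, had 3.38 FPKM with DMSO and 26.9 with JQ1. In the pair of libraries with PHA, the named genes did not all rise. CTD-2550O8.5, CTC-260F20.3 and SURF4 fell there (log2 ratios -5.37, -2.69 and -3.38), and UPK3BL, C7orf55-LUC7L2, ZNF177, NEURL1B and TRIM56 did not pass 2-fold.

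Growth arrest and stress genes of the p53 list mostly had ratios above 0. Of 32 listed 23 passed, 5 rose and 2 fell, and the median was 0.54. TP53INP1, which promotes cell-cycle arrest and autophagy, rose from 1.01 to 8.39 FPKM (log2 ratio 2.93, 95% interval 2.77 to 3.35). SESN3, a sestrin that restrains mTORC1, rose from 6.497 to 28.1, and the anti-proliferative BTG1 from 2.91 to 11.96. CCNG2, a cyclin of arrested cells, and BTG2 rose with log2 ratios of 1.61 and 1.14. AEN, a nuclease induced by p53, and FAS, a death receptor, fell with log2 ratios of -1.20 and -1.03. MDM2, the best known p53 target, had 2.04 and 2.05 FPKM, a log2 ratio of 0.01, and BAX had -0.10. SESN3 and CCNG2 are also known as targets of FOXO factors, and Jurkat cells are known to lack functional p53. The part of either factor in these ratios was not tested.

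Transcription factors of the T lineage moved in both directions, and more rose than fell. Of 41 listed 27 passed, 9 rose and 2 fell, with a median of 0.48. The ID proteins, which block E-protein transcription factors, all rose. ID1 measured 10.5 FPKM with DMSO against 50.2 with JQ1 (log2 ratio 2.25, 95% interval 2.11 to 2.41), ID2 0.611 and 3.73, and ID3 16.99 and 61.4. KLF2, a factor of quiescent T cells, rose from 0.288 to 1.87 FPKM, FOXO1, another such factor, from 0.845 to 3.36, and RORA, a nuclear receptor, with a log2 ratio of 1.56. LEF1, a partner of β-catenin, rose from 33.9 to 81.5 FPKM, while its relative TCF7 fell from 17.6 to 8.47. TOX4 and IKZF2 also rose (log2 ratios 1.17 and 1.07), and ETS2 fell (-1.45). SOX4, the most abundant member, had 74.7 and 137.2 FPKM, short of 2-fold.

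The ID1 promoter, chr20:31605039-31605338 of GRCh38.p14, plus strand, is shown as a promoter outside the histone genes with the same pair of motifs. Capitals mark TATAAA, which starts 31 bases before the start, and CCAAT read on the opposite strand, which starts 84 bases before it.
ID1: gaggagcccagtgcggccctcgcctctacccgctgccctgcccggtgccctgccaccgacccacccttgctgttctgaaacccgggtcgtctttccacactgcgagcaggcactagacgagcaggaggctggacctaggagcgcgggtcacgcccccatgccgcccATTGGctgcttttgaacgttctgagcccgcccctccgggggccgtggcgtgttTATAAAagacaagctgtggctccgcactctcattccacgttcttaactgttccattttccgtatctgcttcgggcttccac

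Of 15 genes of the TAL1 circuit, the set of factors and targets that defines this leukemia subtype, 13 passed, 0 rose and 3 fell, with a median of -0.03. Those that fell included ALDH1A2, an enzyme of retinoic acid synthesis, from 28.3 to 4.195 FPKM, and ETV6 from 12.1 to 4.98. TAL1 itself had 19.1 and 18.7 FPKM, RUNX1 25.7 and 46.9, and MYB 25.3 and 13.2, log2 ratios of -0.03, 0.87 and -0.93. None of these 3 factors passed 2-fold, and the median of the list became 0.02 with DESeq2's size factors. Notch genes had 16 of 31 past the filter, 0 higher and 1 lower (MFNG, 4.95 and 1.24 FPKM), with a median of 0.34.

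Genes of cytokine signalling gave more rises than falls. Of 71 receptors, JAK, STAT and SOCS genes 30 passed, 5 rose and 2 fell, with a median of 0.27 (-0.01 with no filter on low values). STAT4, which carries interleukin 12 signals, rose from 0.923 to 4.78 FPKM and the kinase gene PIM1 from 1.14 to 4.39. JAK1 rose from 19.4 to 51.99 FPKM, STAT2 with a log2 ratio of 1.26 and IL17RA with 1.54. IL9R and IL7R fell with log2 ratios of -1.38 and -1.30. Of 34 genes of the calcium, NFAT and PKC arm 30 passed, 6 rose and 2 fell. PRKCQ, the PKC isoform of the T-cell synapse, rose from 11.6 to 27.8 FPKM and ORAI1, the calcium channel of the plasma membrane, from 2.14 to 5.2. RASGRP2, a calcium-sensitive activator of Rap1, fell from 2.12 to 0.288 FPKM (log2 ratio -2.52).

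The median of the histone acetylation enzymes lay above the upper quartile of all genes (0.37), and that of Polycomb and DNA methylation genes close to the median of all genes. Of 30 histone acetyltransferases and deacetylases 26 passed, 3 rose and 1 fell, with a median of 0.45. KAT2B (PCAF), NCOA3 and NCOA1 rose with log2 ratios of 1.80, 1.56 and 1.44. KAT2A (GCN5), the paralog of KAT2B, fell from 10.4 to 3.32 FPKM, while KAT2B went from 2.46 to 8.81. Of 79 histone lysine methyltransferases and demethylases 60 passed, and KDM5B, KDM7A and KDM3A rose (log2 ratios 1.29, 1.22 and 1.01) and SMYD5 fell (-1.70). The 36 genes of Polycomb and DNA methylation all passed, 0 rose and 0 fell, and their median was 0.06. Of 95 autophagy and lysosome genes 75 passed, 7 rose and 3 fell. NEU1, the lysosomal sialidase, rose from 1.27 to 4.32 FPKM, ULK1, the kinase that starts autophagy, from 3.68 to 7.72, and MAP1LC3B, which coats autophagosomes, from 7.78 to 15.9. CTSW, a cathepsin of cytotoxic cells, fell from 6.75 to 2.38 FPKM.

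**Figure D3:**
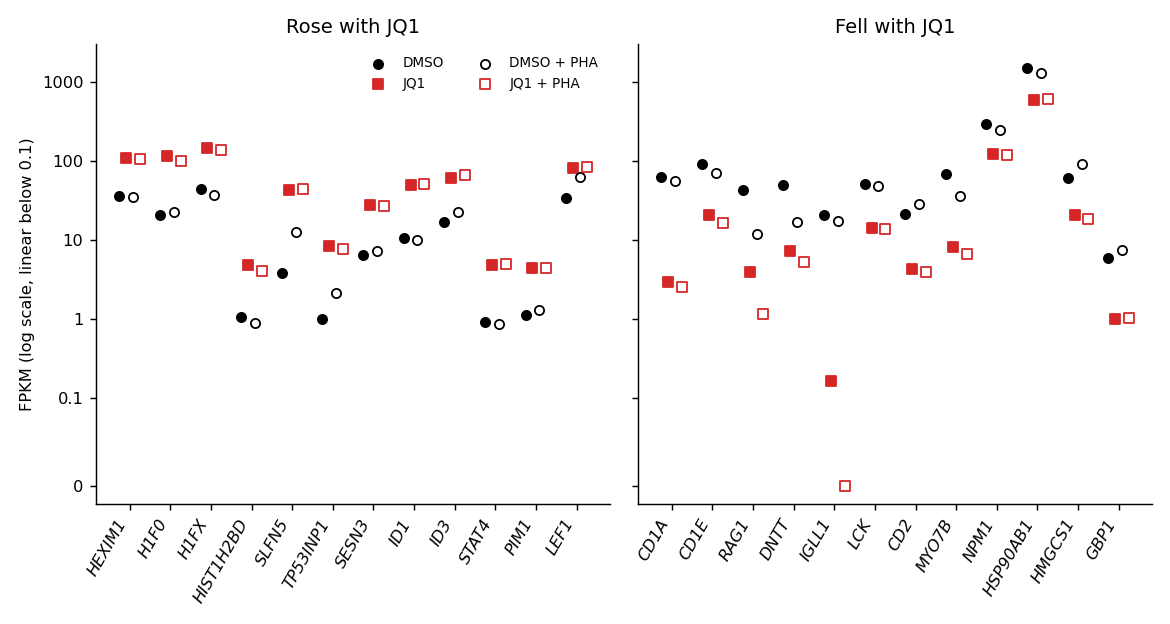
FPKM (vertical axis, log scale, linear below 0.1) in each of the 4 libraries for 12 genes that rose and 12 that fell with JQ1, with filled symbols without PHA and open symbols with PHA. In each of the 12 genes at left both JQ1 libraries lie above both DMSO libraries, and in each of the 12 at right both lie below. These genes do not stand for all that moved. Of the 600 that rose 249 also rose with PHA, and of the 995 that fell 623 also fell.

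Genes of the immature thymic stage had the lowest median of the lists with at least 9 genes that passed. Of 16 recombination, pre-TCR and surrogate light chain genes 11 passed, 0 rose and 9 fell, with a median log2 ratio of -2.42, and together they took 0.203% of the counts with DMSO and 0.0437% with JQ1. IGLL1 (ENSG00000128322, chromosome 22, 23573125 to 23580308, minus strand), a surrogate light chain of immature lymphoid cells, had 21 FPKM with DMSO against 0.169 with JQ1, from 715 and 6 counts. RAG1, the catalytic subunit of the V(D)J recombinase, had 42.9 and 3.93 FPKM (log2 ratio -3.41, 95% interval -3.55 to -3.34). Its partner RAG2 had 11.3 and 2.19, with 27.4% of its exon bases shared with RAG1. DNTT, which adds untemplated bases at the joints, had 49 and 7.19 FPKM. Thus all 3 enzymes of the recombination reaction in the list fell. CD1 genes encode lipid-presenting molecules of cortical thymocytes. CD1A measured 62.1 FPKM with DMSO against 2.96 with JQ1 (95% interval of the log2 ratio of counts -4.67 to -4.13), CD1B 70.2 and 13.1, and CD1C 29.6 and 3.03. CD1E had 90.99 and 20.99, and CD1D, which presents lipids to NKT cells, 15.1 and 5.14. All 5 genes of the cluster fell. CD7 and CD99, both of the same list, had log2 ratios of -0.69 and -0.52 and did not pass 2-fold.

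The IGLL1 promoter is shown as that of the member with the lowest log2 ratio. It lies at chr22:23580241-23580540 of GRCh38.p14 on the minus strand, with 2 CG dinucleotides. Capitals mark CAGATG, an E-box that TAL1 complexes are known to bind, which starts 109 bases before the start.
IGLL1: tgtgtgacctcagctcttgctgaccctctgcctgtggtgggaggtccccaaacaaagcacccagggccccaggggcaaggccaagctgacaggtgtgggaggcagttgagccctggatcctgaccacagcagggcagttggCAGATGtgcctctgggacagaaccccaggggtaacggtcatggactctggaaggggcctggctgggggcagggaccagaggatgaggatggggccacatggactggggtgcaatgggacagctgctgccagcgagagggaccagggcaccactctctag
CAGATG on either strand was in the promoters of 4 of the 9 matched genes of this list (44.4%: RAG2, CD1A, IGLL1 and DNTT), in 14.8% of all promoters, 8.58% of those of genes that passed, 7.39% of those of genes that rose and 12% of those of genes that fell. The median promoter of the list held 2 CG dinucleotides, against 27 over all matched genes, so it was of the kind poor in CG.

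Genes of the T-cell receptor complex, coreceptors and proximal kinases came out lower in part. Of 34 listed 31 passed, 9 fell and 1 rose, with a median of -0.68. GRAP2, an adaptor between LAT and SLP-76, measured 14.9 FPKM with DMSO against 2.12 with JQ1. CD2, an adhesion receptor, had 21.4 and 4.31, and PTPN22, a phosphatase that limits TCR signals, 5.903 and 1.43. The scavenger-type receptors CD5 and CD6 fell with log2 ratios of -1.56 and -1.47, and the coreceptor CD4 with -1.33. CD3E, a signalling chain of the receptor, fell from 67.3 to 30.7 FPKM, while CD3D, CD3G and CD247 had log2 ratios of -0.75, -0.68 and -0.85. Both β-chain constant segments were high, with TRBC1 at 329.5 and 363.5 FPKM and TRBC2 at 256.7 and 172, and they are near-identical in sequence, so the division of their reads is uncertain. PAG1, an adaptor that recruits the inhibitory kinase CSK, rose from 3.803 to 10.1 FPKM.

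Each of the inhibitory and costimulatory receptors that passed had a ratio below 0. Of 37 listed, 27 did not pass, 5 of the 10 that did fell and 0 rose, and the median was -1.12. It moved between -0.47 with a pseudocount of 1 and -2.56 with a filter on the DMSO and JQ1 libraries alone. TNFRSF8 (CD30) fell from 2.97 to 0.136 FPKM, TNFRSF4 (OX40) from 2.08 to 0.149, and CD244 (2B4) from 2.34 to 0.0776. CD40LG, the helper ligand for B cells, fell from 4.396 to 0.662 FPKM and CD27 with a log2 ratio of -1.24. With JQ1 and PHA, TNFRSF8, TNFRSF4 and CD244 had 0.234, 0.196 and 0.041 FPKM, so they passed the filter only through the DMSO libraries. Where members passed in this way the filter itself favours a fall. The share of 5 of 10 and the ratios below 0 are partly set by it. PDCD1, which encodes PD-1, passed the filter through its level with PHA and had 8 counts with DMSO and 1 with JQ1. CD27 also passed through its level with PHA, and had 22 counts with DMSO and 8 with JQ1. PDCD1 and CD27 are the middle members by ratio, so the median of the list rests on them. CD69, an early activation receptor, had 1.05 and 0.766 FPKM. Over symbols that begin with CD and a digit, the 40 protein-coding genes that passed had a median of -0.80, the lowest of 87 symbol stems with at least 12 such genes, with 18 lower and 1 higher.

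Other genes with the largest falls are of mixed function. BMP10, a heart growth factor, had 5.57 FPKM with DMSO and 0 counts with JQ1, at least 57.9-fold lower with 3 counts set as the floor of the JQ1 library. SERPINB2, a protease inhibitor, had 4.85 FPKM and 0 counts (at least 133-fold lower), and CST7, a cystatin of cytotoxic cells, 2.86 FPKM and 0 counts. TSHR, the thyrotropin receptor, fell from 8.11 to 0.288 FPKM, the complement gene C9 from 4.87 to 0.189, and the granule protease gene CTSG from 11.2 to 0.764. PTPN3, a phosphatase, fell from 4.14 to 0.189 FPKM and PVRIG, an inhibitory receptor, from 14.01 to 0.687, with 80.8% of its exon bases shared. C11orf74, beside RAG2, fell from 4.09 to 0.0362 FPKM. The readthrough genes TGIF2-C20orf24, RP11-542C16.2 and PPAN-P2RY11 also fell, and share 99.9%, 97.5% and 94.8% of their exon bases with neighbours. MYO7B, an unconventional myosin, was the most abundant of the genes with a fall of 8-fold or more, at 68.3 FPKM with DMSO and 8.12 with JQ1.

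Genes that build ribosomes were lower in large number. All 71 ribosome biogenesis genes passed, 38 fell and 0 rose, with a median of -1.04, and together they took 1.598% of the counts with DMSO and 0.839% with JQ1. Ribosome assembly starts in the nucleolus, where RNA polymerase I transcribes rRNA that is then cut, modified and folded. NOP16 fell from 7.75 to 1.75 FPKM, RRS1, a factor of the large subunit, from 21.3 to 5.45, and MYBBP1A from 9.07 to 2.48. RRP12, an export factor of both subunits, had a log2 ratio of -1.59, and DDX21, an RNA helicase, fell from 102.9 to 34.4 FPKM. FBL, the rRNA 2′-O-methyltransferase, fell from 66.1 to 28.6 FPKM, and NPM1, a nucleolar chaperone, from 291.9 to 123.9. NCL, nucleolin, the most abundant member, had 302.2 and 153.4 FPKM (log2 ratio -0.98). Only 2 of the 71 were above 0, NMD3 (0.10) and WDR36 (0.20). The members were short genes in part, and after the ratios were centred within deciles of exon length the median was -0.98 and 34 were lower.

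The promoters of MYBBP1A and WDR43 are shown because they hold CACGTG, the E-box that MYC with MAX is known to bind. That of MYBBP1A is at chr17:4555335-4555634 of GRCh38.p14, minus strand, and CACGTG (in capitals) starts 27 bases after the start. That of WDR43 is at chr2:28894417-28894716, plus strand, and CACGTG starts 3 bases after it.
MYBBP1A: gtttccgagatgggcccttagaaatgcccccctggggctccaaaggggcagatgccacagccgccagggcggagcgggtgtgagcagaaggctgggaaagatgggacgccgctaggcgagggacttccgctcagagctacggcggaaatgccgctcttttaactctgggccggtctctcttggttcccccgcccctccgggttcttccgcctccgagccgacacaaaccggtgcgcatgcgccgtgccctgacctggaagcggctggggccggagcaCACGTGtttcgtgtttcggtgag
WDR43: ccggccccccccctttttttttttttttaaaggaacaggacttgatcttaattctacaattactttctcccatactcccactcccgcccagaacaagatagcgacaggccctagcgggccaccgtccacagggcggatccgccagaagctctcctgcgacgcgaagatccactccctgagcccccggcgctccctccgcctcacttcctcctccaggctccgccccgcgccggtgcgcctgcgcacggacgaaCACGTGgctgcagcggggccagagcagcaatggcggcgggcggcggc
WDR43, a factor of the small subunit, fell from 52.2 to 18.6 FPKM. CACGTG reads the same on both strands and was in 36.7% of the ribosome biogenesis promoters (22 of 60), 7.44% of all promoters, 10.8% of those of genes that passed, 17.6% of those of genes that fell (116 of 658) and 7.67% of those of genes that rose. Among the 879 matched genes with it, 13.2% fell and the median ratio was -0.14, against 7.45% and 0.00 without it. The 22 ribosome biogenesis promoters are among those of the 879 genes. RNA of MYC itself was higher with JQ1, as given above, and the part of MYC in these ratios was not tested.

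Other parts of protein synthesis had medians closer to 0. Cytosolic ribosomal proteins had 85 of 89 genes past the filter, 3 fell and 0 rose, with a median of -0.43, and their many processed copies make the division of reads uncertain. Mitochondrial ribosomal proteins had 76 of 77, 16 fell and 1 rose, with a median of -0.58. Centred by exon length, these medians were -0.26 and -0.40. MRPL23 fell from 2.59 to 0.696 FPKM and MRPL19 from 21.6 to 4.58, while MRPL19 was higher with JQ1 in the pair with PHA (log2 ratio 0.84). Of 24 tRNA synthetase genes all passed, 7 fell and 0 rose, and VARS (valine) and FARSA (phenylalanine) had log2 ratios of -1.66 and -1.59. Of 68 translation factors 63 passed, 7 fell and 1 rose, and EIF4B, a cofactor of the eIF4A helicase, fell from 95.7 to 22.9 FPKM. Noncoding genes that host snoRNAs, which guide rRNA modification, had 23 of 33 past the filter, 8 fell and 0 rose, among them SNHG4 (log2 ratio -2.05) and SNHG3 (-1.75). RNA polymerase subunits had 29 of 31 past the filter, 5 fell and 2 rose. POLR1B of polymerase I and POLR1C, which polymerases I and III share, fell with log2 ratios of -1.53 and -1.23, and POLR3G of polymerase III with -1.79. Except for POLR2I (-1.27), the subunits that fell were not of polymerase II, whose largest subunit rose.

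Chaperones lost more of the counts than any other list. Heat shock proteins, DNAJ cochaperones and the chaperonin had 72 of 95 genes past the filter, 10 fell and 0 rose, with a median of -0.37, and their counts went from 3.20% to 1.96%. HSP90AB1, the constitutive cytosolic HSP90, fell from 1510.6 to 594.4 FPKM (log2 ratio -1.35), the largest loss of counts of a single gene. HSPD1 and HSPE1, the mitochondrial chaperonin pair that shares a bidirectional promoter, fell from 295.8 to 119.6 and from 57.2 to 17.8 FPKM. HSPA8, the constitutive HSP70, had 193.2 and 114.6 FPKM, short of 2-fold. In the endoplasmic reticulum, HSPA5 (BiP) fell from 191.5 to 83.1 FPKM, CALR, calreticulin, from 208.1 to 69.3, and SDF2L1 with a log2 ratio of -2.39. Of 42 genes of ATF4 and the unfolded protein response 37 passed, 7 fell and 1 rose, with a median of -0.22. Proteasome genes had 49 of 50 past the filter, 2 fell and 0 rose.

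Amino acid transport and sterol synthesis had medians below 0. Of 20 amino acid transporters 14 passed, 4 fell and 1 rose, with a median of -0.75. SLC7A5, the leucine transporter, fell from 61.9 to 21.1 FPKM, its heavy chain SLC3A2 from 5.44 to 2.46, the cystine transporter SLC7A11 from 3.58 to 1.06 and the arginine transporter SLC7A1 from 29.9 to 9.79. SLC38A2, a neutral amino acid transporter, rose from 22.5 to 47.9 FPKM. Of 22 sterol synthesis genes 20 passed, 6 fell and 1 rose, with a median of -0.80. HMGCS1, which makes HMG-CoA, fell from 60.5 to 21.01 FPKM, and DHCR7 and MSMO1 had log2 ratios of -1.42 and -1.41. SC5D, a late enzyme of the same pathway, rose from 1.72 to 4.15. Genes of sterol uptake, efflux and regulation, by contrast, had 18 of 22 past the filter, 1 higher and 0 lower, with a median of 0.06. In fatty acid synthesis, 4 of 22 genes that passed fell and 2 rose. FASN, fatty acid synthase, fell from 18.6 to 5.48 FPKM, ELOVL6, an elongase, from 2.86 to 0.522, and ACACA, acetyl-CoA carboxylase, from 9.77 to 3.99.

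Interferon-stimulated genes were lower in part. Of 56 listed 35 passed, 10 fell and 1 rose, with a median of -0.49. GBP1, a guanylate-binding GTPase, fell from 5.94 to 1.02 FPKM, OAS3, an RNA sensor, from 4.58 to 0.915, IFIH1 (MDA5) from 4.43 to 0.9404, and BST2 (tetherin) from 86.4 to 34.5. STAT2, a subunit of the factor that drives these genes, was the member that rose, from 3.11 to 7.57 FPKM. ISG15 and IFIT1 had log2 ratios of 0.41 and 0.28, so the list held genes on both sides of 0.

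The GBP1 promoter, chr1:89065159-89065458 of GRCh38.p14, minus strand, is shown for the core of the interferon-stimulated response element (ISRE), here GAAA, any 2 bases and GAAA again. Capitals mark it on the opposite strand, starting 127 bases before the start.
GBP1: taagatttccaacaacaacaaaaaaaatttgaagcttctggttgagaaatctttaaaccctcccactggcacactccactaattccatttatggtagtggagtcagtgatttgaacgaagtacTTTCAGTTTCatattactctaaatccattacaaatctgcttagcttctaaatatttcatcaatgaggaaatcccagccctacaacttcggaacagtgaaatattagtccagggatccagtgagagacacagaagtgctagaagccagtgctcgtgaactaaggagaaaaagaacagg
This ISRE core on either strand was in 57.1% of the promoters of interferon-stimulated genes (16 of 28), in 3.64% of all promoters, 2.78% of those of genes that passed, 2.84% of those of genes that rose and 3.34% of those of genes that fell.

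Cell-cycle genes did not move as a group. G1 cyclins, CDKs and CDK inhibitors had 34 of 40 past the filter, 2 rose and 2 fell. CCND2, a G1 cyclin, fell from 4.55 to 0.6498 FPKM (log2 ratio -2.63), and CDKN1B (p27), which arrests cells in G1, rose from 13.7 to 36.2. CDKN2D, a CDK inhibitor of the INK4 family, rose from 4.11 to 12.8. CDK6, the most abundant kinase of the list, had 279.9 and 349.5 FPKM. All 67 DNA replication genes passed, 2 rose and 2 fell, with a median of -0.28, and all 73 mitosis genes passed, 1 rose and 0 fell, with a median of 0.23. In the BCL2 family, 3 of 17 that passed rose and 2 fell. BMF, a pro-apoptotic BH3 protein, rose from 0.321 to 1.97 FPKM and BNIP3L from 16.2 to 38.7, and BCL2 fell as given above. MLKL, which executes necroptosis, fell from 3.88 to 0.421 FPKM.

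Homeobox genes and ion channels gave more falls than rises. Of 106 homeobox genes 28 passed, 9 fell and 1 rose. HOXB7 fell from 4.34 to 0.898 FPKM, HOXD13 from 2.21 to 0.499 and HOXA5 from 3.75 to 1.05. Of 175 ion channel genes 24 passed, 7 fell and 1 rose. TRPM2, an oxidant-gated calcium channel, fell from 4.01 to 0.269 FPKM and P2RX5, an ATP-gated channel, from 2.21 to 0.481. HOXB7, HOXD13, TRPM2 and P2RX5 were under 1 FPKM with JQ1, so they passed the filter through other libraries. Most genes of both lists did not pass, and the filter favours a fall where a gene passed through its level with DMSO. Of 30 AP-1, ATF, EGR and NR4A factors 17 passed, 3 fell and 1 rose. BATF3 and BATF, partners of JUN proteins, fell with log2 ratios of -2.23 and -1.70, and JUN and JUND had 0.85 and 0.98. SELPLG, a selectin ligand of lymphocyte homing, fell from 11.2 to 2.69 FPKM, and S1PR1, the receptor for exit from lymphoid organs, rose from 0.967 to 2.604.

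Several large families lay at or below the background. Of 284 zinc finger genes with ZNF symbols 13 rose and 16 fell, with a median of 0.13. Of 119 splicing genes 1 rose and 4 fell, with a median of -0.01 (0.01 with TMM factors and 0.03 with DESeq2's size factors), and of 29 genes of glycolysis and the pentose phosphate pathway 0 rose and 0 fell, with a median of -0.11. Nuclear-encoded respiratory chain subunits had 3 lower of 78, and the 15 genes of the mitochondrial genome 0 of 15. MT-CO1, a subunit of cytochrome oxidase, went from 7792.0 to 9365.6 FPKM, the largest gain of counts of any gene, and MT-RNR2, the large mitochondrial rRNA, from 3404.6 to 2670.6. EEF1A1P5, a processed copy of the elongation factor gene EEF1A1, had 5583.6 and 4268.7 FPKM, and the division of reads between it and its near-identical parent is uncertain. TMSB10, an actin-binding thymosin, rose from 244.8 to 565 FPKM.

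Long noncoding RNA (lncRNA) genes were past 2-fold more often than protein-coding genes, in both directions. Of 850 lncRNA genes that passed, 110 rose (12.9%) and 96 fell (11.3%), against 4.23% and 8.46% of the 9489 protein-coding genes. The 2 kinds of genes were not matched by level, and the share that fell differed by level, as given below. NEAT1, the scaffold of paraspeckles, rose from 3.26 to 24.2 FPKM (log2 ratio 2.85), and GABPB1-AS1 from 0.498 to 5.13. The largest rises were in RP11-473I1.9 (0.708 and 30.4 FPKM) and RP11-140H17.1 (0.0878 and 5.44), and both lie wholly within exons of a protein-coding gene, HAPSTR1 and CYB5B. Whether the counting used strand is not given, so such genes cannot be told apart from their hosts. LINC01120 fell from 3.798 to 0.0819 FPKM, and RP11-26E5.1 from 5.67 to 0. Of 127 genes named as antisense RNAs that passed, 14 rose and 17 fell, and of 52 long intergenic ones 5 and 9.

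Long genes had higher ratios than short genes. Protein-coding genes in the shortest decile by exon bases had a median log2 ratio of -0.28, with 3.69% higher and 16.8% lower, and those in the longest decile had 0.21, with 5.48% and 3.16%. Genes with 20 exons or more had a median of 0.18. By level, the lowest decile of mean FPKM had 16.5% lower genes and the highest decile 6.32%. Lists of short genes, such as the ribosomal proteins, share this gradient, and its part in their medians was measured only by centring on length. After centring within deciles of exon bases, 718 genes were higher and 849 lower. Over 10% of the exon bases were shared with another gene in 153 of the genes that rose, 242 of those that fell and 2732 of all that passed.

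**Figure D4:**
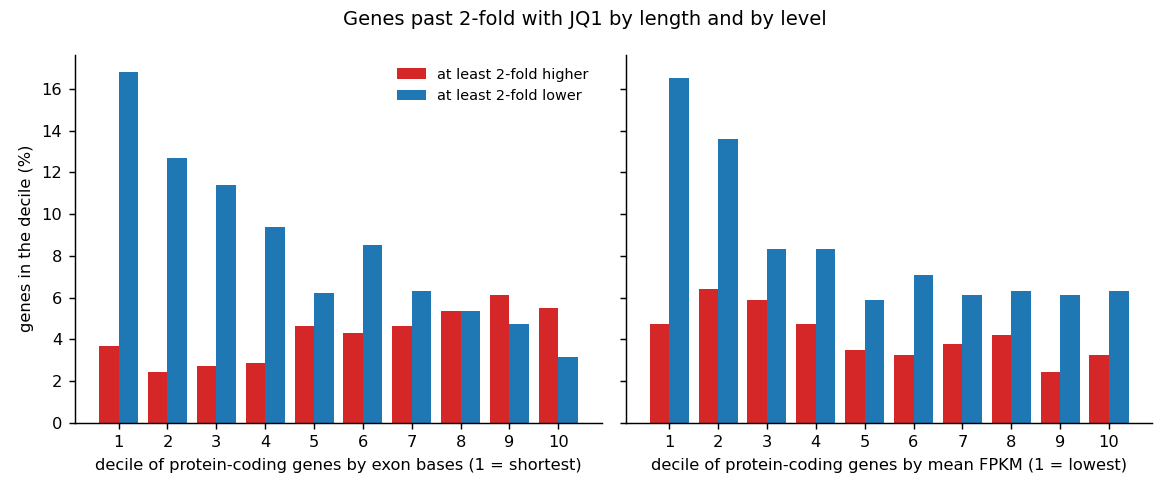
Percent of protein-coding genes at least 2-fold higher (red) and lower (blue) with JQ1 (vertical axis), by decile of exon bases (left) and by decile of mean FPKM (right). The share of lower genes goes from 16.8% in the shortest decile to 3.16% in the longest, and from 16.5% in the lowest decile of level to 6.32% in the highest.

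Runs of neighbours that moved together were looked for after the values were seen. In 18 places, 3 or more protein-coding genes that were consecutive among those that passed went past 2-fold in the same direction, 5 higher and 13 lower. In 12 of the 18 at least 1 gene shares over 10% of its exon bases with another gene, so the division of its reads is uncertain. Of all protein-coding genes that passed 4.23% rose and 8.46% fell, and the number of runs that these shares would give by themselves was not computed. The longest was the CD1 cluster on chromosome 1 (158179947 to 158357553), where all 5 genes fell. On chromosome 6 (26055787 to 26271815) HIST1H1C, HIST1H2AC, HIST1H2BD and HIST1H3G rose. On chromosome 11 (36510709 to 36659290) RAG1, RAG2 and C11orf74 fell.

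The pair of libraries with PHA gave a separate measurement of JQ1 against DMSO, in activated cells. There 424 genes were higher (3.69%) and 920 lower (8%). Of the genes that rose without PHA 249 also rose with it, 41.5% of the 600 and 58.7% of the 424, and of those that fell 623 also fell, 62.6% of the 995 and 67.7% of the 920. The ratio had the same sign in 538 of the 600 and 945 of the 995. Medians of the lists with PHA were 1.91 for replication-dependent histone genes, -0.86 for ribosome biogenesis, -2.11 for the recombination list and 0.36 for the p53 list. The filter used all 4 libraries, and histone genes such as HIST1H3G passed only because both JQ1 libraries were high, as did MYC. For such genes a rise with PHA, or in the fit below, was set in part by the filter. TNFRSF8, TNFRSF4 and CD244 passed only through the DMSO libraries, and for them a fall was favoured in the same way. Some values differed widely between the pairs. KLF2 had 1.2 and 1.71 FPKM with PHA (log2 ratio 0.47, against 2.34 without), TCF7 had 0.16 against -1.04, and EIF4B 0.10 against -2.06. SURF4 went from 40.9 to 3.84 FPKM with PHA, opposite to its values without. Past 2-fold in opposite directions were 16 of the genes that rose and 9 of those that fell, and 7 of the 16 share over 10% of their exon bases with another gene. These differences between pairs were not tested. A fit over all 4 libraries with PHA as a term, added after the data were seen, gave the JQ1 effect averaged over both pairs, with 1 residual degree of freedom and any difference between the pairs counted as error. By edgeR's quasi-likelihood test 1895 genes (16.5%) were higher with JQ1 and 2151 (18.7%) lower at a Benjamini-Hochberg adjusted p under 0.05. HEXIM1 was higher in both pairs, with a fitted log2 ratio of 1.61 (edgeR adjusted p = 0.0121), and so was MYC, with 1.46 (edgeR adjusted p = 0.015).

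**Figure D5:**
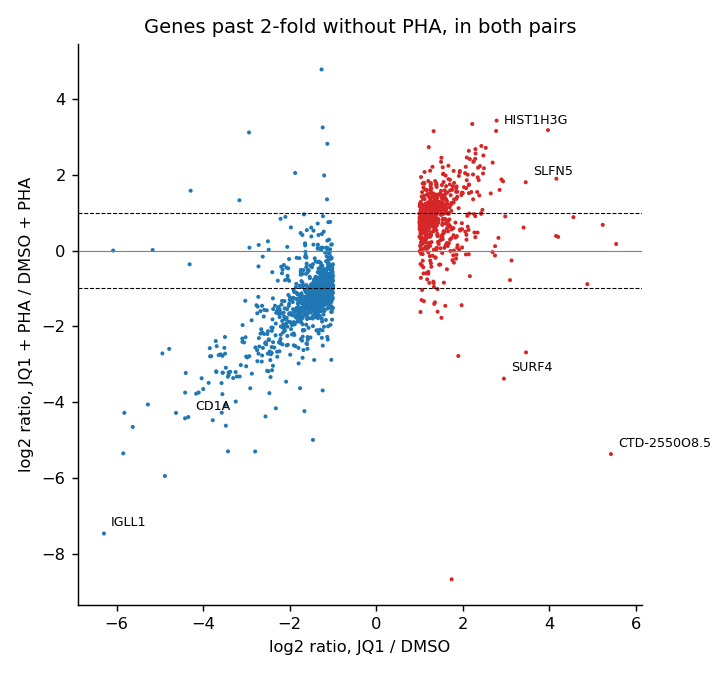
The log2 ratio of JQ1 + PHA to DMSO + PHA (vertical axis) against that of JQ1 to DMSO (horizontal axis) for the 1595 genes past 2-fold without PHA, with those that rose in red and those that fell in blue. Dashed lines mark 2-fold. Of the genes that rose 538 of 600 lie above 0 with PHA, and of those that fell 945 of 995 lie below, with SURF4 and CTD-2550O8.5 on the opposite side.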

How the data were processed

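RNA-seq was done on Jurkat cells with 1 library for each of 4 conditions, and the JQ1 and DMSO libraries without PHA were compared. The authors deposited, for each of 50868 Ensembl identifiers, raw read counts and FPKM, which a check showed to be counts over gene length and library total. The study's methods name Hisat2 2.0.4 and GRCh38, while the submitters' processing notes list TopHat2 2.0.9 and Cufflinks 2.1.1. The counting program, whether it used strand, and the release of the annotation are not given in the sources used here. The labels name a VAHTS Universal V6 kit and the methods a stranded mRNA kit.

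The files were joined on gene identifier. Genes whose FPKM averaged 1 or more over 4 libraries were kept, and log2 ratios of FPKM were taken with a pseudocount of 0.1. Counts gave a 95% exact (Clopper-Pearson) interval for the ratio of their shares, for counting error only, and folds against 3 counts or fewer were computed against 3 counts. Total counts were between 18620954 and 19685401, and 3 counts are between 0.152 and 0.161 CPM. With 1 library for each condition, JQ1 against DMSO without PHA was given with no test. A fit over the 4 libraries (edgeR's quasi-likelihood test, TMM factors, terms for PHA and JQ1, 1 residual degree of freedom) was added after the data were seen and assumes 1 JQ1 effect in both pairs.

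The members and the gene lists were chosen with earlier results of these data known. Named genes are the 15 protein-coding and 8 other genes at each end, the 8 genes with the largest gain and the 8 with the largest loss of counts, up to 4 members past 2-fold and the most abundant member of each list, and HEXIM1, MYC and BET genes. Some genes under this rule are not reported here. Genes named beyond this rule were chosen after their values were seen. Gene names are those of the files, and 28 symbols (15 that passed) read as dates. Biotype, length and overlap came from GENCODE 44, which holds 49659 of the identifiers, all but 119 of those that passed. Promoters came from RefSeq (GRCh38.p14) by symbol and chromosome, for 8156 genes, at the first of the listed starts, and 5952 of these have 1 start. Positions count from 0 at the start.

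Alternatives were other pseudocounts, filters, folds and scalings. Centring by deciles of exon length and leaving out genes with shared exons were added after the data were seen. Scripts were tested on simulated data. Scripts ran in Python 3.11.15 (pandas 2.3.3, numpy 2.4.6, matplotlib 3.10.9, scipy 1.17.1). Scaling factors came from DESeq2 1.42.0 and edgeR 4.0.16 in R 4.3.3.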

Additional observations from a re-analysis of the deposited data

Results flagged for a closer look

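Of the named genes, 8 went past 2-fold in opposite directions with and without PHA, in their log2 ratios of JQ1 to DMSO. Each condition has 1 library, and the difference between the pairs was not tested. CTD-2550O8.5 had 5.43 without PHA and -5.37 with it, CTC-260F20.3 had 3.46 and -2.69, and both are readthrough genes. RP11-311C24.1, which lies wholly within NFAT5 exons, had -4.29 and 1.58, and RAB43, which shares 79.3% of its exon bases with a readthrough gene, had -1.87 and 2.05. SURF4 had 2.95 and -3.38, and TRIM32, a ubiquitin ligase, had 1.90 and -2.78, and neither shares exon bases with another gene. PTGER4, a receptor for prostaglandin E2, had 1.42 and -1.61, from 3.22 to 8.77 FPKM without PHA and from 28.1 to 9.13 FPKM with it. DUSP3, a phosphatase of MAP kinases, had -1.14 and 1.35.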

How the results depend on the processing

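The counts of genes past 2-fold moved with the threshold and with the treatment of low values. With a pseudocount of 1, 305 genes were higher and 576 lower, with a mean FPKM of at least 5 there were 198 and 372, with no filter 1945 and 2797, at 1.5-fold 1702 and 2222, and at 4-fold 78 and 197. Over the other alternatives, the genes higher numbered between 401 and 718 and those lower between 734 and 1052. The edgeR fit over 4 libraries with PHA as a term, which averages both pairs, gave 496 and 910 at a fitted fold of 2, TMM factors 648 and 953, and DESeq2's size factors 668 and 905. Of 72 list medians, 14 changed sign with no filter, 7 with a mean FPKM of at least 5, 5 with centring by exon length, 2 with DESeq2's size factors, 1 with TMM factors and 0 under the other settings. Of 272 named genes past 2-fold, 55 were not past it with a pseudocount of 1. No replicate could be left out, since each condition has 1 library, and the fit with PHA as a term took the pair of libraries as the block. Depth limits genes near 3 counts, and the intervals leave out all variation between cultures.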
